A study of Homo sapiens with 39 samples.

Results

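The comparison described here sets 3 RNA-seq libraries of HCT116 cells carrying isoform 4 of hepatocyte nuclear factor 4 alpha (HNF4A) against 3 libraries of the parental cells, 6 of the 39 libraries of the study. The members were chosen by the isoform named in the sample labels and not by any measured value. HCT116 is a human colorectal cancer cell line. The study made 12 stable lines by Flp-In T-REx recombination, in which a single inserted construct, 1 HNF4A isoform with GFP at its carboxy-terminal end, responds to doxycycline. The parental group was the host line with no HNF4A construct, kept in blasticidin and zeocin, and the isoform 4 line was kept in blasticidin and hygromycin B. All cells of both groups received 2.5 µg/ml doxycycline for 48 h, with the selection antibiotics withdrawn at induction. No group expressed GFP alone and isoform 4 was carried by 1 stable line, so effects of the isoform, of GFP, of the earlier antibiotics and of deriving this line cannot be told apart. Nothing in the labels says that the 3 libraries of a group came from separate cultures. The p-values rest on the spread between libraries of the same group, pooled over the 13 groups of the study, and this spread may be technical.

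HNF4A is a nuclear receptor that binds DNA as a homodimer at direct repeats of a hexamer and drives genes of the liver, kidney, pancreas and intestinal epithelium. Its gene has alternative promoters and alternative exons, so the isoforms differ at the amino-terminal end, which holds an activation function, and at the carboxy-terminal end. By the standard nomenclature, isoforms 4, 5 and 6 share an insertion near the amino-terminal end that isoforms 1, 2 and 3 lack, while isoforms 1 and 4 share the same form of carboxy-terminal end. The isoform 4 line was therefore also compared with the isoform 1, isoform 5 and isoform 6 lines, contrasts that do not use the parental libraries.

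HNF4A itself was far higher in the libraries labelled isoform 4. Levels are in TPM, a measure of transcript abundance scaled for transcript length and library total. The 12 rows that hold the HNF4A isoforms summed to 31.95, 30.81 and 31.66 TPM in the parental libraries and to 871.72, 872.32 and 823.25 TPM in the isoform 4 libraries, the third highest mean of the 13 groups. In the parental cells all of it stood in the rows named HNF4A7 to HNF4A12, mostly HNF4A12 at 27.7785, 27.332 and 28.6897 TPM, and in the isoform 4 libraries these 6 rows were at 0. The names HNF4A4 and HNF4A5 are exchanged between the table of the isoform 4 line and that of the parental cells. The row that holds nearly all HNF4A of the isoform 4 libraries, 867.424, 869.46 and 820.414 TPM, is called HNF4A4 in their own table and HNF4A5 in the parental table. The isoform 5 libraries put a mean of 850.963 TPM in the row that is called HNF4A5 in their own table and HNF4A4 in the parental table. Which naming is right was not tested, and by the parental names the line labelled isoform 4 would express isoform 5. In the isoform 1, 7 and 10 lines the rows HNF4A2, HNF4A8 and HNF4A11 held means of 1.062, 1.483 and 1.241 TPM. In the isoform 2, 8 and 11 lines the rows HNF4A1, HNF4A7 and HNF4A10 held 0.084, 0.149 and 0.268 TPM. By the names of their own tables, the isoform 4 line held 1.956 TPM in HNF4A5 and the isoform 5 line 0.2 TPM in HNF4A4, the same order. The names isoform 4 line and isoform 5 line are those of the labels throughout. The insertion shared by isoforms 4, 5 and 6 does not depend on that choice, whereas the carboxy-terminal end shared with isoform 1 does. Whether the endogenous rows fell or their reads were assigned to the induced row cannot be told apart, and these 12 rows entered no test.

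The libraries were close to each other. Pearson correlations across genes of log2(TPM + 1) were 0.991 to 0.993 between libraries of the same group and 0.987 to 0.99 between the groups. Between 28346 and 30553 genes were above 0 in each library. TPM columns carry no depth, and the mean normalised counts deposited by the authors for this comparison summed to 53904760. Of 13 markers of colorectal epithelium, 5 were under 1 TPM in all 6 libraries. EPCAM, another of them, was at a mean of 514 TPM in the parental and 486 TPM in the isoform 4 libraries. All 8 hepatocyte markers stayed under 1 TPM in all 6 libraries. The same was true of 7 of 9 fibroblast, 6 of 7 endothelial and 8 of 9 leukocyte markers.

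Few genes passed both the test and a fold minimum. A gene was called when limma gave a Benjamini-Hochberg adjusted p under 0.05 and the means on the log2(TPM + 1) scale differed by at least 1, a scale that understates the change of genes near or under 1 TPM. Of 15002 genes tested, 80 (0.533%) were called, 33 higher (0.22%) and 47 lower (0.313%) in the isoform 4 line. With rows of identical values counted once, 76 were called, 33 higher and 43 lower. Whichever of the 6 libraries was left out, 19 of the genes called higher and 31 of those called lower stayed called. Short or copied RNAs made up 6 of the 33 and 9 of the 47, and none of these stayed called in every such fit. Of the 80 genes, 5 called higher and 5 called lower moved by at least 2 on the log2 scale. They include the short RNAs RNU6-333P and SNORD124. The libraries of the groups did not overlap in any of the 80 genes, against 35.2% of all genes tested whose groups do not overlap; the 80 were chosen for differing between these same libraries. These are bulk samples, in which fewer cells with a transcript and less of it per cell cannot be told apart. At adjusted p under 0.05 with no fold minimum, 2451 genes passed (16.3%), 938 higher (6.25%) and 1513 lower (10.1%). That split depends on how libraries are scaled: with median-of-ratios scaling, which moves the median log2 fold change of all genes from -0.032 to 0.029, 3080 genes passed (20.5%), 2183 higher (14.6%) and 897 lower (5.98%). With the fold minimum the same scaling gave 79 genes (0.527%), 37 higher (0.247%) and 42 lower (0.28%).

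**Figure D1:**
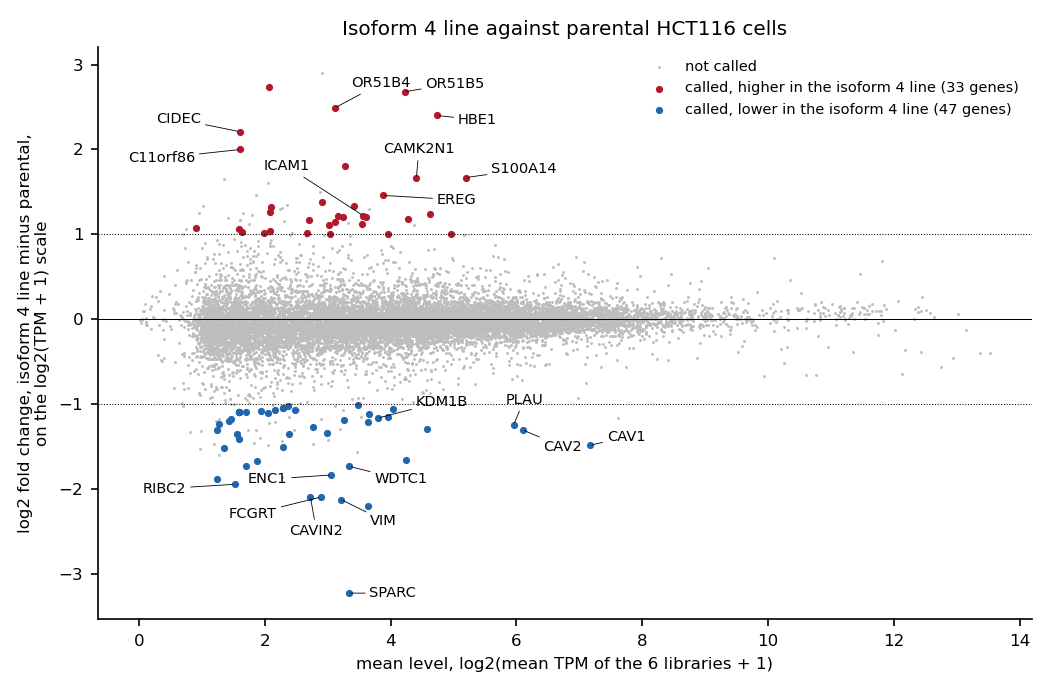
Each point is 1 of 15002 tested genes; the horizontal axis is the mean level in the 6 libraries and the vertical axis the log2 fold change of the isoform 4 line minus the parental cells, with dotted lines at the fold minimum. The 33 genes called higher (red) and 47 called lower (blue) lie outside a cloud centred near 0, with SPARC lowest at -3.22 and OR51B5 the highest of the labelled genes at 2.68.

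On the log2(TPM + 1) scale, the largest rises among genes called whichever library was left out were at the beta-globin cluster on chromosome 11. As ratios of mean TPM they were smaller, 5.7 for HBE1, 7.78 for OR51B5 and 8.36 for OR51B4, than the ratios of 53.5 for CIDEC and 18 for C11orf86, genes close to 0 in the parental cells. HBE1, the embryonic beta-like globin, stood at 5.31, 8.92 and 8.81 TPM in parental cells and reached 44.6, 44.4 and 42.4 TPM in the isoform 4 line (log2 fold change 2.40, SE 0.18, limma adjusted p = 4.84e-11). The olfactory receptor gene OR51B5 went from 3.87, 3.98 and 4.23 TPM to 28.1, 34.3 and 31.5 TPM (2.68, SE 0.16, limma adjusted p = 2.89e-13). Its neighbour OR51B4 went from 1.26, 1.58 and 2.07 TPM to 12.8, 14 and 14.3 TPM (2.49, SE 0.15, limma adjusted p = 4.2e-13). In GENCODE release 29 on GRCh38, HBE1 (chr11:5268345-5505652) and OR51B5 (chr11:5303444-5505652) are both on the minus strand and start at the same base, and OR51B4 (chr11:5301014-5301946) lies inside HBE1, so their reads may come from 1 transcribed stretch and the genes cannot be told apart. The fetal globin gene HBG2, at 0.513, 0.692 and 0.864 TPM in the parental cells, was at 3.96, 5.28 and 5.66 TPM in the isoform 4 line, and OR51B2 was at 0.224, 0.098 and 0.15 against 1.7, 2.2 and 1.83 TPM. Both missed the filter on the mean over all 39 libraries and were not tested. The adult globin gene HBB was not among the genes that rose: it was at 37.3, 35.2 and 32.1 TPM in the parental and 29.2, 25.2 and 23.2 TPM in the isoform 4 libraries (-0.42, SE 0.09, limma adjusted p = 0.002). TRIM6, further along the chromosome, had 0.00 on the log2 scale (SE 0.10, limma adjusted p = 0.999).

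**Figure D2:**
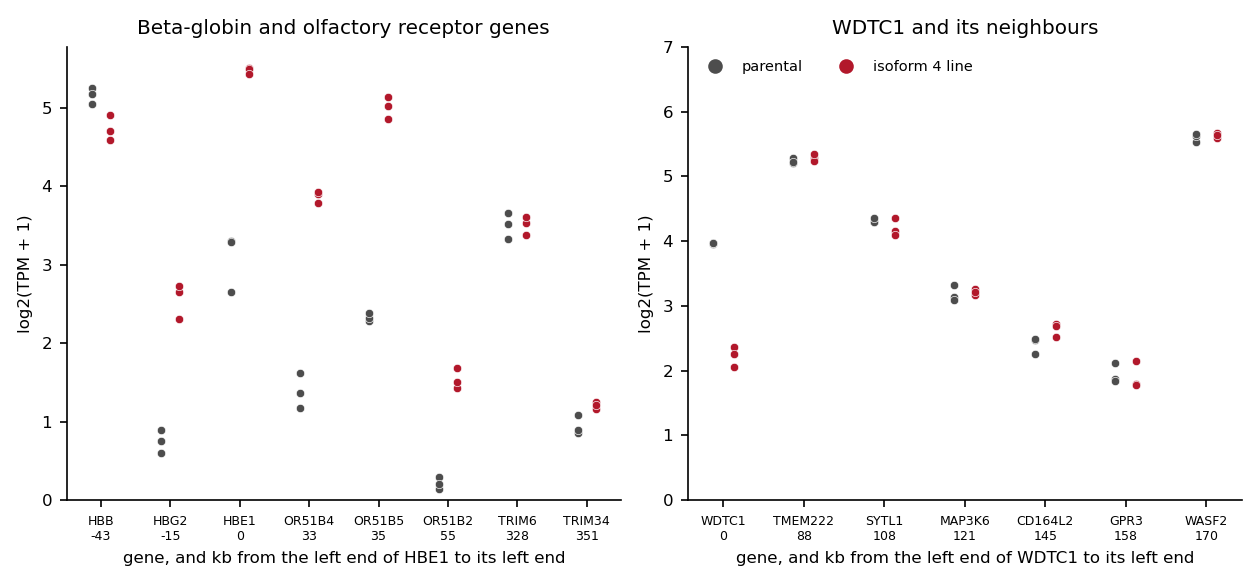
Points are single libraries, parental in grey and isoform 4 line in red, as log2(TPM + 1), for genes ordered along the chromosome by kb from HBE1 (left panel) or from WDTC1 (right panel). From HBG2 to OR51B2 the isoform 4 libraries lie above all parental libraries while those of HBB lie below them. In the right panel WDTC1 shows the widest gap between the groups; CD164L2 also does not overlap, with a log2 fold change of 0.24 that did not pass (limma adjusted p = 0.156).

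Across the 13 groups HBE1 was highest in the isoform 4 line at 43.8 ± 1.24 TPM (SD, n = 3), followed by the isoform 5 line at 26.7 ± 0.535 and the isoform 12 line at 16.4 ± 1.93 TPM. The remaining 9 lines had lower mean HBE1 than the parental cells at 7.68 ± 2.05 TPM, with the isoform 1 line at 2.12 ± 0.693 and the isoform 6 line at 2.14 ± 0.283 TPM. Tested directly, HBE1 was higher in the isoform 4 line than in the isoform 1 line by 3.86 on the log2 scale (SE 0.18, limma adjusted p = 3.9e-17) and than in the isoform 6 line by 3.84 (SE 0.18, limma adjusted p = 7.76e-16). The difference from the isoform 5 line was 0.69 (SE 0.18, limma adjusted p = 0.012), under the fold minimum.

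A further group of genes rose in the isoform 4 line from very low parental levels, and stood far higher in the isoform 1 line. CIDEC, a lipid droplet protein that promotes droplet fusion, was at 0.0344, 0.125 and 0.0643 TPM in parental cells against 4.31, 4.38 and 3.26 TPM in the isoform 4 libraries (2.21, SE 0.13, limma adjusted p = 2.06e-13). C11orf86 was at 0.3, 0.139 and 0.213 TPM in the parental and 4.89, 3.05 and 3.77 TPM in the isoform 4 libraries (2.00, SE 0.14, limma adjusted p = 1.51e-11). No library of one group reached the other for either gene. In the isoform 1 line CIDEC stood at 91.1 ± 7.42 TPM and C11orf86 at 98.8 ± 11.4 TPM (SD, n = 3), and the isoform 4 line differed from that line by -4.21 and -4.36 on the log2 scale (limma adjusted p = 5.35e-21 and 1.86e-20). Against the isoform 6 line, whose CIDEC mean of 0.0692 TPM was near the parental 0.0745 TPM, the isoform 4 line was higher by 2.21 (SE 0.13, limma adjusted p = 9.47e-14).

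S100A14, a calcium-binding protein of epithelia, followed the same order at higher levels. It was at 15.2, 17.3 and 17.2 TPM in the parental cells and at 60.3, 54.8 and 49.6 TPM in the isoform 4 line (1.67, SE 0.11, limma adjusted p = 2.13e-12), with no overlap. Its mean was 408 ± 31.7 TPM in the isoform 1 line, 30.2 ± 2.08 in the isoform 5 line and 20.1 ± 0.818 TPM in the isoform 6 line. The isoform 4 line differed from the isoform 1 line by -2.87 (limma adjusted p = 3.25e-19), and from the isoform 6 line by 1.40 (limma adjusted p = 7.44e-11). NAT2, an arylamine acetyltransferase of liver and gut, went from 1.85, 1.3 and 1.32 TPM to 5.73, 4.98 and 4.18 TPM (1.26, SE 0.15, limma adjusted p = 4.4e-07). It differed from the isoform 5 line by 1.60 and from the isoform 1 line by -1.83 (limma adjusted p = 7.41e-09 and 1.46e-11). TRIM10, a tripartite-motif protein gene, went from 1.4, 1.46 and 1.52 TPM to 5.4, 4.79 and 5.26 TPM (1.32, SE 0.12, limma adjusted p = 3.38e-09). TRIM15, 11261 bases away between left ends and also called (log2 fold change 1.02, SE 0.12, limma adjusted p = 3.28e-07), went from 3.36, 2.88 and 3.38 TPM to 7.45, 8.19 and 7.01 TPM, while TRIM26 beside them had a log2 fold change of 0.01. SEMA3B, a secreted class 3 semaphorin, went from 4.57, 4.65 and 4.85 TPM to 14.8, 11.9 and 9.93 TPM (1.2, SE 0.16, limma adjusted p = 1.62e-06). Without isoform 4 library A4N2 or without parental replicate 2, TRIM15 had 0.97, under the fold minimum. TRIM10, TRIM15 and SEMA3B differed from the isoform 1 line by -1.45, -2.75 and -2.33 (limma adjusted p = 2.8e-11, 8.56e-18 and 1.26e-13), and their differences from the isoform 5 and isoform 6 lines, from 0.06 to 0.43, stayed under the fold minimum. For C11orf86, S100A14, TRIM10 and SEMA3B the parental mean was the lowest of the 13 groups.

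**Figure D3:**
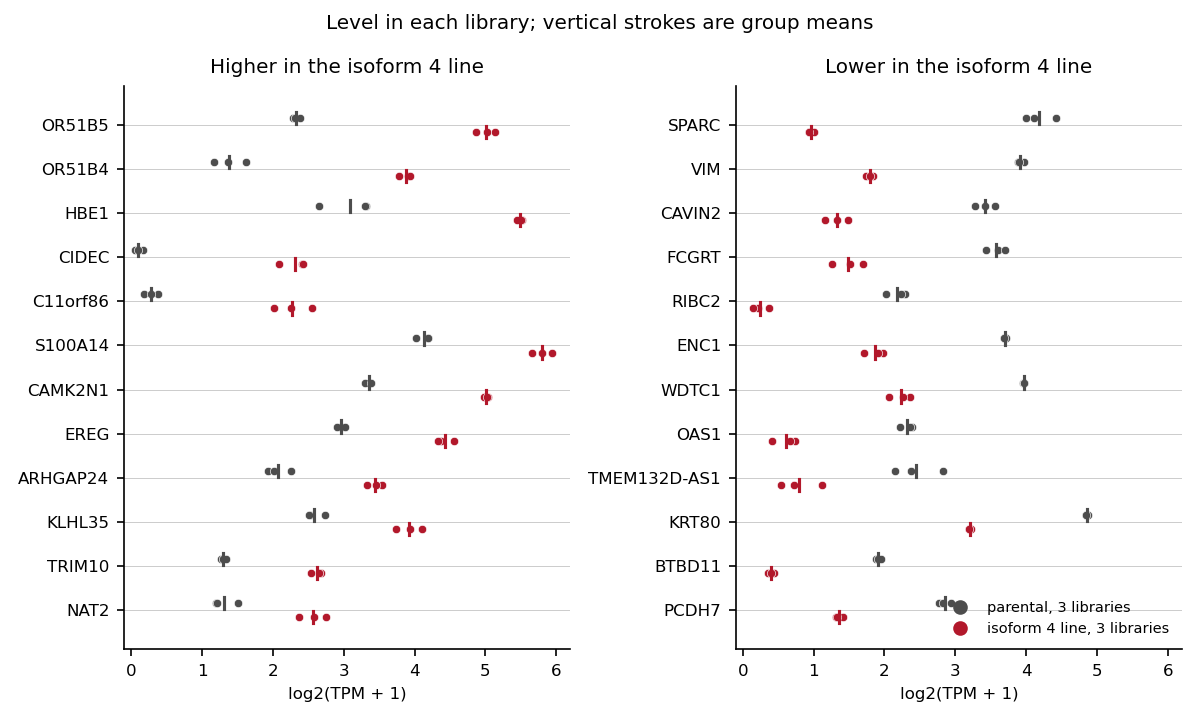
Points give log2(TPM + 1) in each library, parental in grey and isoform 4 line in red, for the 12 genes with the largest rise (left) and the 12 with the largest fall (right) among genes called whichever library was left out. The 3 libraries of each group lie closer to each other than to the other group for each of the 24 genes, from OR51B5 at 2.68 to SPARC at -3.22.

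Other genes with large rises had separate roles. EREG, which encodes the EGF receptor ligand epiregulin, was at 6.76, 7.08 and 6.51 TPM in the parental and 19.8, 22.5 and 19.2 TPM in the isoform 4 libraries (1.46, SE 0.10, limma adjusted p = 4.47e-12). It separated the lines that share the insertion: the isoform 4 line was above the isoform 5 line by 1.61 (SE 0.10, limma adjusted p = 7.69e-13) and above the isoform 6 line by 2.70 (SE 0.10, limma adjusted p = 3.44e-18). FGF19, the enterohepatic hormone of the FGF family, was at 9.47, 9.29 and 9.34 TPM in the parental and 20.5, 20.3 and 19.0 TPM in the isoform 4 libraries (1.01, SE 0.10, limma adjusted p = 1.15e-08). This rise sits at the fold minimum: it was 0.99 without isoform 4 library A4N1. ANO1, a calcium-activated chloride channel encoded 380070 bases from FGF19 between left ends, went from 6.33, 6.11 and 6.64 TPM to 15.0, 15.5 and 14.6 TPM (1.12, SE 0.07, limma adjusted p = 5.06e-13). The nearby genes CCND1, FADD and PPFIA1 had log2 fold changes of 0.12, 0.06 and -0.03. CAMK2N1, an inhibitor of the kinase CaMKII, went from 9.39, 8.86 and 9.43 TPM to 30.6, 31.9 and 31.4 TPM (1.66, SE 0.15, limma adjusted p = 9.03e-10), and the isoform 1 line stood at 30.0 ± 3.14 TPM, a difference of 0.06 on the log2 scale (SE 0.15, limma adjusted p = 0.744). The parental mean of CAMK2N1 was the lowest of the 13 groups. ARHGAP24, a Rac GTPase-activating protein, went from 3.76, 2.81 and 3.06 TPM to 10.6, 9.07 and 9.97 TPM (1.38, SE 0.10, limma adjusted p = 7.58e-12), above the highest of the other 36 libraries at 7.19 TPM.

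Of the FGF signalling list, 16 of 21 members were tested and the median log2 fold change was -0.037. FGF19 was called higher and FGFBP1 lower, against 0.22% and 0.313% of all genes tested. FGFBP1, a secreted carrier of FGFs, was at 31.5, 36.9 and 30.0 TPM in the parental and 12.7, 14.1 and 11.4 TPM in the isoform 4 libraries (-1.29, SE 0.22, limma adjusted p = 7.76e-05). The 20 genes flanking FGFBP1 had a median log2 fold change of -0.313. The parental mean of FGFBP1 was the highest of the 13 groups. The receptors FGFR1, FGFR2, FGFR3 and FGFR4 had log2 fold changes between -0.06 and 0.01. ETV4, a transcription factor induced by FGF signalling, rose under the fold minimum, from a mean of 107 to 159 TPM (0.57, limma adjusted p = 4.31e-09).

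On the log2(TPM + 1) scale the largest fall of a called gene was that of SPARC. This secreted collagen-binding matricellular protein was at 15.0, 16.3 and 20.4 TPM in parental cells against 0.917, 1.01 and 0.904 TPM in the isoform 4 libraries (-3.22, SE 0.34, limma adjusted p = 2.92e-08), a mean ratio of 18.2. Its parental mean was the highest of the 13 groups. VIM, the intermediate filament vimentin, went from 13.8, 14.6 and 13.9 TPM to 2.34, 2.59 and 2.46 TPM (-2.12, SE 0.22, limma adjusted p = 1.96e-08). Groups did not overlap for either gene. VIM in the isoform 4 line was the lowest mean of the 13 groups, but the isoform 7, 9 and 11 lines stood at 2.66, 3.14 and 3.18 TPM. The lowest of the other 36 libraries was at 2.13 TPM. VIM differed by -1.38 from the isoform 5 line (SE 0.22, limma adjusted p = 4.3e-05) and by -3.19 from the isoform 6 line, which stood at 30.6 ± 2.58 TPM (SE 0.22, limma adjusted p = 3.84e-12). Its difference from the isoform 1 line, -0.44, did not pass (SE 0.22, limma adjusted p = 0.0926). SPARC differed from the isoform 6 line by -1.66 (SE 0.34, limma adjusted p = 0.000986), while the differences from the isoform 1 line, 0.76, and the isoform 5 line, -0.86, did not pass (SE 0.34 for both, limma adjusted p = 0.0557 and 0.111). SPARC ranged from 0.119 to 0.187 TPM in the isoform 1 line and from 2.48 to 2.61 TPM in the isoform 5 line. Neither range overlaps the isoform 4 libraries. The SE uses the spread pooled over the 13 groups, among them the isoform 3 line at 0.326 to 7.27 TPM. VCAN, the proteoglycan versican, went from 16.7, 16.5 and 15.9 TPM to 8.13, 6.33 and 5.36 TPM (-1.21, SE 0.15, limma adjusted p = 6.81e-07). PLAU, which encodes urokinase, went from 77.5, 93.9 and 87.1 TPM to 35.2, 36.3 and 36.1 TPM (-1.24, SE 0.08, limma adjusted p = 6.6e-13).

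Of 9 fibroblast markers 1 passed the filter on low values, COL1A1, with a log2 fold change of -0.12 (limma adjusted p = 0.592). Summed fibroblast markers ranged from 13.61 to 15.55 TPM in the parental and from 10.78 to 16.93 TPM in the isoform 4 libraries, mostly COL1A1 (mean 13 and 12.0 TPM), with LUM at 0 in all 6 libraries. Among 18 listed genes of the epithelial-mesenchymal state, 14 were tested and VIM was called lower, against 0.313% of all genes tested. With no fold minimum FN1, the matrix protein fibronectin, also fell (mean 4.75 to 2.42 TPM, -0.76, limma adjusted p = 6.5e-06). CDH1 (E-cadherin) was at 29.2, 30.6 and 33.1 TPM against 29.4, 25.5 and 24.6 TPM, with -0.22 on the log2 scale (limma adjusted p = 0.14), and SNAI1 and SNAI2 had 0.10 and -0.21. The median over the list was -0.085, against -0.032 over all genes tested.

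Of 20 matricellular genes measured, 7 were tested. SPARC and CYR61 were called lower, against 0.313% of all genes tested, with no member called higher. The list median was -0.75. CYR61 is a target of the transcriptional co-activator YAP and fell from 26, 18.6 and 18.8 TPM to 9.1, 9.87 and 9.84 TPM (-1.05, SE 0.15, limma adjusted p = 8.25e-06). Without parental replicate 1 its fold was -0.89 and with median-of-ratios scaling -0.98, both under the minimum. Its relative CTGF fell by 0.75 (limma adjusted p = 0.000458) and THBS1 (thrombospondin-1) by 0.75 (limma adjusted p = 5.52e-06). Of 12 tested YAP and TEAD targets, 1 was called, CYR61, and 6 passed adjusted p under 0.05 alone, all lower: CYR61, CTGF, AMOTL2, AXL, TEAD1 and F3, with log2 fold changes from -1.05 to -0.32, against 10.1% of all genes tested that were lower by this rule. With median-of-ratios scaling none was called, 2 passed upward and 6 downward, against 14.6% and 5.98% of all genes tested. The list median was -0.253.

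Caveolae, the flask-shaped invaginations of the plasma membrane, are built from caveolins and cavins, and 3 of the 7 tested members of that list were called lower, against 0.313% of all genes tested, and none higher. CAV1, the scaffold caveolin, was at 214, 214 and 204 TPM in the parental and 71.3, 76.8 and 76.9 TPM in the isoform 4 libraries (-1.48, SE 0.07, limma adjusted p = 5.94e-15). CAV2, its partner encoded next to it, went from 98.1, 100.0 and 91.0 TPM to 36.1, 40.8 and 39 TPM (-1.30, SE 0.08, limma adjusted p = 6.6e-13). CAVIN2, a coat protein encoded on chromosome 2, went from 9.66, 8.7 and 10.8 TPM to 1.51, 1.24 and 1.81 TPM (-2.09, SE 0.17, limma adjusted p = 2.14e-10). The coat protein CAVIN1 and the caveola neck protein EHD2 fell under the fold minimum, each by 0.31 (limma adjusted p = 9.28e-06 and 0.000668), CAVIN3 had -0.24 (limma adjusted p = 0.174) and PACSIN2 -0.07 (limma adjusted p = 0.202). MET, encoded beyond CAV1, had -0.33 (limma adjusted p = 0.00589). Caveola genes summed to 462.5 to 484.8 TPM in the parental and 239.4 to 255.2 TPM in the isoform 4 libraries.

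The caveolins and CAVIN2 ordered the lines differently. CAV1 had its lowest means in the isoform 4 line (75.0 ± 3.2 TPM) and the isoform 5 line (81.3 ± 7.1 TPM), which differed by -0.11 on the log2 scale (SE 0.07, limma adjusted p = 0.388), and the isoform 1 line stood at 196 ± 2.79 TPM. CAVIN2 was highest of all groups in the isoform 5 line at 13.5 ± 1.43 TPM, a difference of -2.53 for the isoform 4 line (SE 0.17, limma adjusted p = 5.25e-12), and low in the isoform 1 line at 1.02 ± 0.156 TPM, a difference of 0.32 (SE 0.17, limma adjusted p = 0.118).

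**Figure D4:**
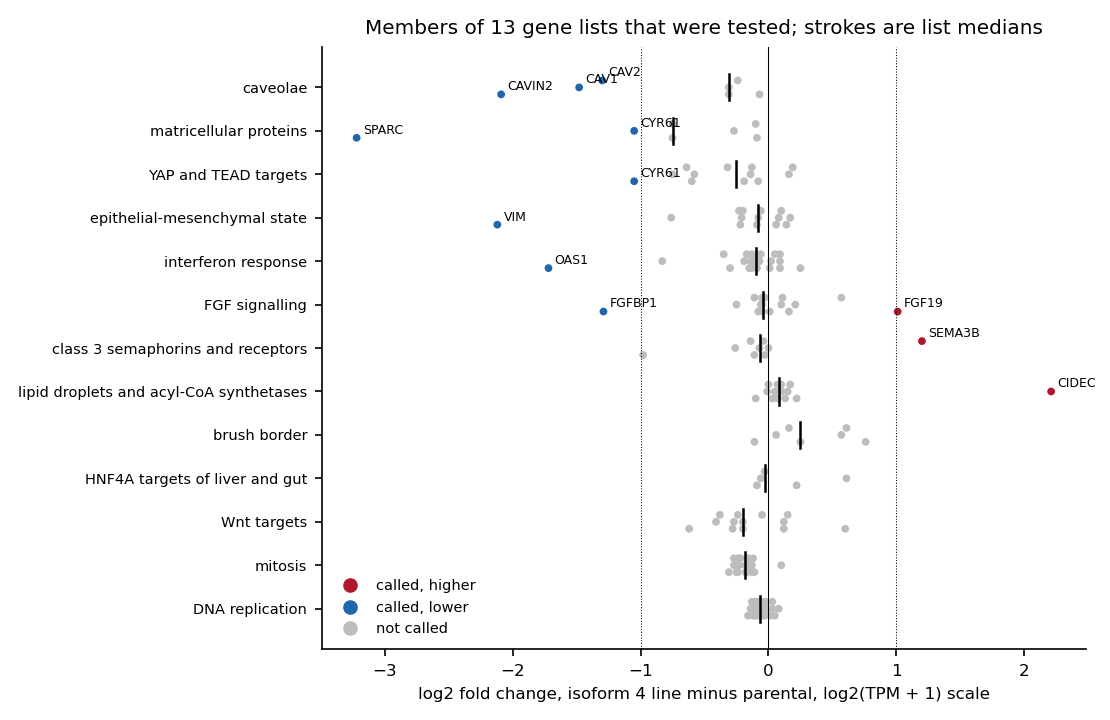
Each point is a tested member of 1 of 13 gene lists, placed by its log2 fold change in the isoform 4 line against the parental cells, with called genes coloured and named and strokes at the list medians. The caveola list holds 3 called genes and the matricellular list 2, each of these has a median below 0, and the replication, mitosis and Wnt lists hold none.

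Among the other falls, OAS1, an interferon-inducible sensor of double-stranded RNA, went from 3.65, 4.24 and 4.13 TPM to 0.66, 0.585 and 0.336 TPM (-1.72, SE 0.11, limma adjusted p = 6.6e-13). OAS3 beside it fell by 0.83 (limma adjusted p = 7.72e-08), from 26.9, 30.2 and 30.6 TPM to 16.5, 16.3 and 15.0 TPM. Of the 22 tested interferon response genes OAS1 was the 1 called, against 0.313% of all genes tested called lower. At adjusted p alone 4 passed, all lower (OAS1, OAS3, ISG15 and IRF9), against 10.1% of all genes tested. The list median was -0.1. With median-of-ratios scaling 1 passed upward and 3 downward, against 14.6% and 5.98% of all genes tested. In OAS1 the isoform 4 line lay under all other 36 libraries, whose lowest was 1.14 TPM, and it differed by -3.02 from the isoform 1 line (SE 0.11, limma adjusted p = 7.38e-20), which at 11.3 ± 0.471 TPM was above the parental mean of 4.0 TPM. The isoform 5 and isoform 6 lines were also low in OAS1, at 1.41 ± 0.122 and 1.32 ± 0.159 TPM, and the isoform 4 line differed from them by -0.66 and -0.61, under the fold minimum.

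ENC1, an actin-binding kelch protein, went from 11.9, 12.1 and 11.9 TPM to 2.96, 2.76 and 2.28 TPM (-1.83, SE 0.09, limma adjusted p = 7.88e-15). It lay under the lowest of the other 36 libraries, 4.0 TPM, and differed from the isoform 5 and isoform 6 lines by -1.33 and -1.23 (SE 0.09 each, limma adjusted p = 9.21e-12 and 2.97e-11). RIBC2, a protein of the microtubule doublets of cilia, went from 3.08, 3.88 and 3.7 TPM to 0.295, 0.158 and 0.109 TPM (-1.94, SE 0.15, limma adjusted p = 8.16e-11). The epithelial keratin KRT80 went from 27.6, 28.3 and 27.8 TPM to 8.17, 8.32 and 8.17 TPM (-1.65, SE 0.15, limma adjusted p = 3.09e-09), and the protocadherin PCDH7 from 5.83, 6.11 and 6.68 TPM to 1.49, 1.66 and 1.51 TPM (-1.5, SE 0.11, limma adjusted p = 2.2e-11). BTBD11 was at 2.68, 2.74 and 2.85 TPM against 0.286, 0.356 and 0.32 TPM (-1.51, SE 0.13, limma adjusted p = 6.58e-10). For KRT80, PCDH7 and BTBD11 the differences of the isoform 4 line from the isoform 1, 5 and 6 lines, between -0.75 and 0.07, did not reach the fold minimum. In these genes and in ENC1 the parental mean was the highest of the 13 groups. The antisense RNA TMEM132D-AS1 was at 6.07, 3.44 and 4.2 TPM against 1.18, 0.454 and 0.647 TPM (-1.66, SE 0.32, limma adjusted p = 0.000461). The killer lectin genes KLRC2 and KLRC3 were called lower (-1.26 and -1.08), but they are near-identical copies whose reads can be split between them, and KLRC3 had -0.82 without isoform 4 library A4N3. CDKN2B, a cyclin-dependent kinase inhibitor, was at 5.75, 6.36 and 7.46 TPM against 2.04, 2.09 and 1.71 TPM (-1.35, SE 0.12, limma adjusted p = 6.07e-10).

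In all, 5 genes were called against the parental cells and, in the same direction, against each of the isoform 1, isoform 5 and isoform 6 lines, apart from 5 rows of tRNA copies with identical values. WDTC1, a substrate receptor of a ubiquitin ligase, was at 14.5, 14.7 and 14.7 TPM in the parental cells and 4.15, 3.8 and 3.17 TPM in the isoform 4 line (-1.73, SE 0.09, limma adjusted p = 7.88e-15). Its differences from the isoform 1, 5 and 6 lines were -1.49, -1.72 and -1.87. FCGRT, the heavy chain of the neonatal Fc receptor, went from 9.81, 11.2 and 12.0 TPM to 2.24, 1.85 and 1.4 TPM (-2.09, SE 0.16, limma adjusted p = 4.8e-11), with differences from these lines of -2.74, -1.71 and -1.52. KDM1B, a histone H3 lysine demethylase, went from 18.6, 17.9 and 18.3 TPM to 7.33, 7.98 and 7.49 TPM (-1.16, SE 0.06, limma adjusted p = 6.07e-14), with differences of -1.58, -1.23 and -1.16. The other two genes were higher. ICAM1, the adhesion receptor for leukocyte integrins, went from 5.89, 6.68 and 5.8 TPM to 15.2, 16.8 and 14.7 TPM (1.22, SE 0.17, limma adjusted p = 5.55e-06), 1.65, 3.33 and 2.51 above the isoform 1, 5 and 6 lines. KLHL35, a kelch-like protein, went from 4.75, 4.67 and 5.64 TPM to 12.4, 14.3 and 16.2 TPM (1.34, SE 0.13, limma adjusted p = 3.58e-09), 1.04, 1.48 and 1.15 above them.

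In a comparison added after seeing these values, the isoform 4 line was set against each of the other 11 lines, contrasts that all share the isoform 4 libraries. The isoform 1, 5 and 6 lines, by which these genes were chosen, are 3 of the 11. WDTC1, FCGRT and KDM1B were called lower in 11 of 11, ICAM1 was called higher in 11 of 11 and KLHL35 in 9 of 11. The smallest differences were -1.38 for WDTC1, -1.04 for FCGRT, -1.16 for KDM1B, 1.28 for ICAM1 and 0.68 for KLHL35. The 36 libraries outside the comparison ranged from 10.8 to 17.5 TPM for WDTC1, where the highest isoform 4 library was at 4.15 TPM, and from 0.302 to 6.68 TPM for ICAM1, where the lowest isoform 4 library was at 14.7 TPM. These ranges include the parental libraries. Neighbours of WDTC1, KDM1B and FCGRT were looked at in the same way, and none of those named here was called. TMEM222, SYTL1 and MAP3K6 beside WDTC1 had log2 fold changes of 0.05, -0.11 and 0.03, TPMT and DEK on either side of KDM1B had 0.04 and -0.03, and RCN3 beside FCGRT had -0.04. Because isoform 4 was carried by 1 line, a property of that line and an effect of the isoform cannot be told apart for these genes.

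Upstream sequences are given for WDTC1, FCGRT, KDM1B and ICAM1, which set the isoform 4 line apart from the other 11 lines, and for KLHL35, EREG and RIBC2, called genes that hold a nuclear receptor hexamer. Each run is the 250 bases before a RefSeq gene start on GRCh38.p14, 5′ to 3′ on the strand of the gene, with matches to the hexamer AGGTCA or its reverse complement in capitals. RefSeq places the start of KLHL35 beyond the end of its GENCODE model, and the windows of FCGRT and ICAM1 lie inside theirs.
KLHL35, chr11:75433204-75433453, minus strand: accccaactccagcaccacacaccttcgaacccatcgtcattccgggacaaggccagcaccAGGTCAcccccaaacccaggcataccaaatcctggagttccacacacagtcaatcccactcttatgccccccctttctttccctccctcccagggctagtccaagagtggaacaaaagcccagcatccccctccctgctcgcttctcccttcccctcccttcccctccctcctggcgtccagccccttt
EREG, chr4:74364895-74365144, plus strand: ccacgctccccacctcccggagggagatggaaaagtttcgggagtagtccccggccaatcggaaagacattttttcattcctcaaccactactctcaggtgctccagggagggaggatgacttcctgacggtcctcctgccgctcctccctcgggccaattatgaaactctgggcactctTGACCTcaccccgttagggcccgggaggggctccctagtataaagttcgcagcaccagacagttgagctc
RIBC2, chr22:45413443-45413692, plus strand: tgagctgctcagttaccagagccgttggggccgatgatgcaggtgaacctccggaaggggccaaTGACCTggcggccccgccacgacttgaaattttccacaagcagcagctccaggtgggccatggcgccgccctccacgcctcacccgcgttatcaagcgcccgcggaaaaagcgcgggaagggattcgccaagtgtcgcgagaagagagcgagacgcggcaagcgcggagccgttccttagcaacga
WDTC1, chr1:27234211-27234460, plus strand: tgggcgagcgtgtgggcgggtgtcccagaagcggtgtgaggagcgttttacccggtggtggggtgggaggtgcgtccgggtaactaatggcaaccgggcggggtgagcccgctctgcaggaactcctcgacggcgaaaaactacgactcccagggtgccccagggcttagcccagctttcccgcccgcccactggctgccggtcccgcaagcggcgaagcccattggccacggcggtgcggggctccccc
FCGRT, chr19:49512411-49512660, plus strand: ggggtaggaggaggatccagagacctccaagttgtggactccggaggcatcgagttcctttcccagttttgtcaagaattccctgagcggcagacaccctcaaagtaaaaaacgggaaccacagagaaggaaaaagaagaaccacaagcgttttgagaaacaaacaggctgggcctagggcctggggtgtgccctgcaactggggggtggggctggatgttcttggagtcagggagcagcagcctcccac
KDM1B, chr6:18155172-18155421, plus strand: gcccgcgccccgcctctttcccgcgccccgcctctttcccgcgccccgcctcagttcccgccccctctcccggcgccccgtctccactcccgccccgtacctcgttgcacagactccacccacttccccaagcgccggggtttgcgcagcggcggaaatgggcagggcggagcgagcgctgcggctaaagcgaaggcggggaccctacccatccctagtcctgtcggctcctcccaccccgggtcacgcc
ICAM1, chr19:10270870-10271119, plus strand: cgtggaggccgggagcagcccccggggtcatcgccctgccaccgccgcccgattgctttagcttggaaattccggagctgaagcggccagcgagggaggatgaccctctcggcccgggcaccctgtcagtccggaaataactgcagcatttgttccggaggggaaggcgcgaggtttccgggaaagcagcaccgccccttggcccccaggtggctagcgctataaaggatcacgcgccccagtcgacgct
KLHL35 and EREG rose and RIBC2 fell, and each has 1 hexamer in this window. WDTC1, FCGRT, KDM1B and ICAM1 have none, which says only that these letters are not in the 250 bases shown.

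Over the whole promoter table, windows of 250 bases before to 50 bases after a start were matched by symbol for 19 of the 33 genes called higher and 25 of the 47 called lower. The HNF4-specific motif CAAAGTCCA was in none of their windows, and in 0.384% of all 35116 windows. The direct repeat AGGTCANAGGTCA was also in none, and in 0.0228% of all windows. The hexamer AGGTCA, on either strand, was in windows of 5 genes called higher (ARHGAP24, EREG, KLHL35, MVP and TRIM15) and 1 called lower (RIBC2). By windows that was 5 of 30 (16.7%) and 1 of 39 (2.56%), against 13.8% of all windows. The direct repeat contains the hexamer. The CCAAT box, a common promoter element, was in 8 of 30 windows (26.7%) of genes called higher and 10 of 39 (25.6%) of genes called lower, against 34.6% of all windows. The CCAAT and hexamer searches were added after the values were seen, and a match is a description of letters.

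**Figure D5:**
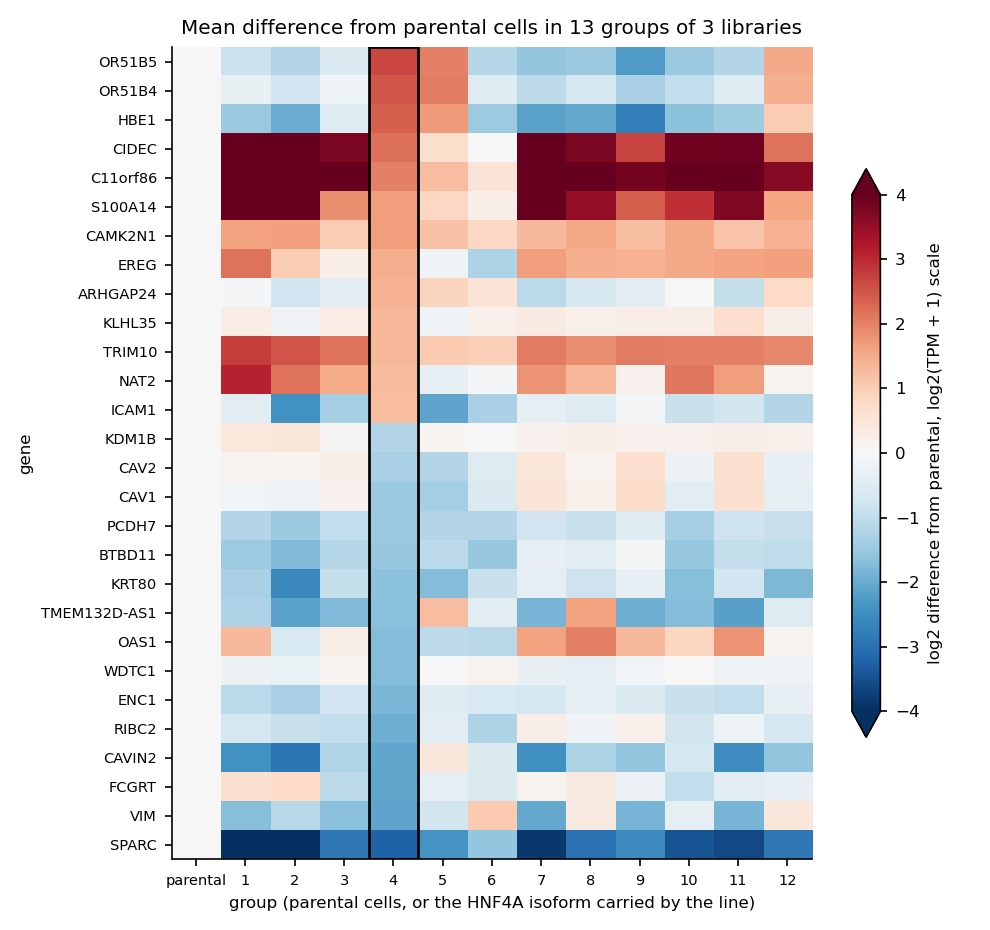
Colours give the difference of each group's mean from the parental mean on the log2(TPM + 1) scale, for 28 genes (rows) in the parental cells and the 12 lines (columns, numbered by isoform), with the isoform 4 column outlined and colours saturating at 4. CIDEC, C11orf86 and S100A14 are darker in the isoform 1 column than in the isoform 4 column, and WDTC1 and KDM1B are lowest in the isoform 4 column, at -1.73 and -1.16.

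Among the isoform 1, 5 and 6 lines, the isoform 4 line differed most from the isoform 1 line. In that contrast 674 genes were called (4.49%), 260 higher (1.73%) and 414 lower (2.76%) in the isoform 4 line. Against the isoform 5 line 53 genes were called (0.353%), 9 higher (0.06%) and 44 lower (0.293%). Against the isoform 6 line the count was 74 (0.493%), 28 higher (0.187%) and 46 lower (0.307%). Genes named above show the pattern: the isoform 4 line was above the isoform 6 line in CIDEC, C11orf86, S100A14 and EREG and below it in VIM, SPARC, WDTC1 and FCGRT. HNF4A sums of the 4 lines were 782 ± 21.1 (isoform 1), 856 ± 28.2 (isoform 4), 852 ± 39.8 (isoform 5) and 1071 ± 41.4 TPM (isoform 6; SD, n = 3).

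Classical HNF4A targets of liver and gut, such as the apolipoproteins, were mostly not expressed in either group. Of 21 such genes, 18 were under 1 TPM in all 6 libraries and 4 of these were at 0, APOA4, APOH, FABP1 and TM4SF5. None of the 5 tested was called, with a list median of -0.03, and VIL1, the microvillar actin bundler villin, passed adjusted p alone (0.482, 0.683 and 0.497 TPM against 1.42, 1.33 and 1.33 TPM, 0.61, limma adjusted p = 0.0107). The coagulation factor gene F10 was at 9.59, 8.6 and 9.58 TPM against 10.0, 8.49 and 7.5 TPM, overlapping between the groups.

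Brush border genes had a list median of 0.246 over 7 tested, against -0.032 over all genes. None was called, 4 passed adjusted p alone upward and 1 downward, against 6.25% and 10.1% of all genes tested. USH1C (harmonin, a scaffold of microvillar links) went from a mean of 6.43 to 11.6 TPM (0.76, limma adjusted p = 6.59e-05), EPS8 (an actin-capping protein of microvilli) from 22.7 to 34.1 TPM (0.57, limma adjusted p = 9.7e-06), and EZR (ezrin) from 396 to 367 TPM (-0.11, limma adjusted p = 0.0411, a pass that is lost with median-of-ratios scaling). Among 14 tested lipid droplet and acyl-CoA synthetase genes CIDEC was the 1 called, where 0.22% of all genes tested were called higher. The lipase PNPLA2 rose by 0.22 on the log2 scale (limma adjusted p = 0.00215). Among 9 tested class 3 semaphorins and receptors SEMA3B was the 1 called, against 0.22% of all genes tested called higher. The receptor NRP1 fell just under the minimum, from 6.85 to 2.98 TPM (-0.98, limma adjusted p = 2.03e-07), and PLXND1 by 0.26. B2M, the light chain of MHC class I, rose from 237 to 391 TPM (0.72, limma adjusted p = 4.57e-08). It was the 1 of 12 tested antigen-presentation genes to pass, against 6.25% of all genes tested passing upward. With median-of-ratios scaling 4 passed upward, against 14.6% of all genes tested. None was called.

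Of 25 tested nuclear receptor genes none was called. HNF4G, the paralog of HNF4A, rose from a mean of 3.61 to 5.71 TPM (0.54, limma adjusted p = 6.12e-05) and VDR, the vitamin D receptor, from 6.77 to 9.58 TPM (0.45, limma adjusted p = 0.000376), while NR3C1, the glucocorticoid receptor, fell from 8.75 to 5.73 TPM (-0.53, limma adjusted p = 0.000288). Wnt targets gave no call among 13 tested, 2 passing upward and 5 downward at adjusted p alone. The shares of all genes tested were 6.25% upward and 10.1% downward. AXIN2, a feedback inhibitor of the pathway, fell from 2.43 to 1.23 TPM (-0.62, limma adjusted p = 5.7e-05), and DKK1, a secreted inhibitor, rose from 420 to 639 TPM (0.60, limma adjusted p = 3.17e-11). The pro-apoptotic p53 target BAX fell from 172 to 102 TPM (-0.75, limma adjusted p = 6.09e-14), with 0 of 21 tested p53 targets called and a list median of 0.081.

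No gene of the DNA replication list passed at either rule among 26 tested, with a median of -0.067. Of 20 mitosis genes none was called and 8 were lower at adjusted p alone, from -0.31 for the kinase PLK1 to -0.17 for TPX2. Over all genes tested the share lower by this rule was 10.1%. With median-of-ratios scaling 2 of these mitosis genes were lower, against 5.98% of all genes tested. None was called among 19 tested genes of the integrated stress response and serine synthesis, 17 ER chaperones, 13 heat shock genes, 23 cholesterol synthesis genes, 24 hypoxia and glycolysis genes or 4 metallothioneins. Within these, the sterol oxidase MSMO1 rose by 0.74 (limma adjusted p = 8.69e-05; the median over its 20 flanking genes was 0.466) and the hypoxia-inducible NDRG1 by 0.75 (limma adjusted p = 5.93e-06).

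At the edge of the fold minimum, SPHK1 (1.01) and MVP (1.00) were the last genes called higher and FIBCD1 and SNORD45C (0.99 each) the first left out. On the lower side S100A10 (-1.01) and SLFN5 (-1.02) were the last called, and CHST2 (-0.99) and EIF4EBP3 (-0.98) the first left out. In the authors' deposited table for this comparison, 64 genes passed the same thresholds, 29 higher and 35 lower. Of the 80 genes called here, 50 were among those 64 in the authors' deposited table. On the p threshold alone, 64 of the 80 passed with the same sign in the authors' deposited table, and 16 had no adjusted p there.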

How the data were processed

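RNA-seq of 6 libraries was compared, within 39 libraries of 13 groups. Values are TPM, length-scaled transcript abundances deposited by the authors for 45446 rows per table. Per the submitters' processing notes, which give no roles, the tools were Trimmomatic 0.36, FastQC 0.11.5, kallisto 0.44.0 and DESeq2 1.22.2, with build GRCh38.p12. The authors also deposited a mean normalised count signal, log2 fold changes and p-values for the comparison, credited where used. TPM carries no depth, so its precision is unknown.

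Tables were joined by row order because 27 gene names had become dates in the isoform 4 table, and the 12 HNF4A rows were left out. The 15002 genes whose TPM averaged 1 or more across all 39 libraries were fitted with limma 3.58.1 in R 4.3.3 on log2(TPM + 1), with 13 group means, 26 residual degrees of freedom and Benjamini-Hochberg adjustment over all genes tested. On simulated data the fit recovered 100 of 100 genes changed by 1.5 and 100 of 100 changed by 3 (log2) among 15002, and called 0 unchanged genes. The changed genes were drawn only from those with a parental mean log2(TPM + 1) above 3, and the noise was normal. Changes in genes below that level, and changes close to the fold minimum, were not simulated. Alternatives changed the pseudocount, filter, scaling, libraries fitted and fold minimum.

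Genes named are the 12 largest rises and 12 largest falls among genes called with each of the 6 libraries left out, leaving out short and copied RNAs; the called genes and up to 4 largest changes of each of 28 lists; genes called against the parental, isoform 1, isoform 5 and isoform 6 groups; and those next to the fold minimum. Neighbouring genes, and further members named beside a list's count, were chosen after their values were seen. The members and lists were chosen with earlier results of these data known. The list of 13 mitochondrially encoded genes matched no row. Gene positions are from GENCODE release 29.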

Additional observations from a re-analysis of the deposited data

How the results depend on the processing

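Against the parental cells, a pseudocount of 0.1 TPM gave 161 genes called (59 higher, 102 lower), a filter at a mean of 5 TPM gave 40 (20 higher, 20 lower), and no fold minimum gave 2451 (938 higher, 1513 lower). With the pseudocount of 0.1 TPM, 454 genes were higher than in the isoform 1 line, 123 were called against the isoform 5 line (111 lower) and 132 against the isoform 6 line (48 higher, 84 lower). With the filter at 5 TPM, these were 170 higher against isoform 1, 22 called against isoform 5 (5 higher, 17 lower) and 32 against isoform 6 (14 higher, 18 lower). The filter tests fewer genes; the cause of the other shifts was not tested. Leaving out 1 library gave 72 to 87 genes called against the parental cells (25 to 38 higher, 45 to 54 lower), 657 to 708 against isoform 1 (238 to 290 higher, 391 to 427 lower), 52 to 63 against isoform 5 (7 to 9 higher, 44 to 55 lower) and 67 to 75 against isoform 6 (24 to 30 higher, 37 to 50 lower). The 24 genes with the largest rises and falls were taken from genes called whichever library was left out. They kept direction and call in all 328 combinations of gene and alternative with a value. There were 14 alternatives, and 8 of the genes had no value under the 5 TPM filter. The fits with 1 library left out are 6 of the 14, and there the calls were fixed by how the genes were chosen. Of 39 called genes named by rule, 9 (CYR61, FGF19, MVP, SPHK1, S100A10, SLFN5 and 3 tRNA copies) lost the call in 23 combinations, and TRIM15 and KLRC3, named beside their neighbours, lost it as given above. Leaving isoform 3 replicate 1, which stands apart from its group, out of the pooled spread was added after seeing the data and gave 80. No paired analysis was possible because the labels give all 3 isoform 4 libraries the same library name, so their table columns cannot be tied to a replicate number.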
